A study of Mus musculus with 24 samples.

Results

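The expressed long non-coding RNAs of a mouse lymphoid progenitor line were the 101 genes that the deposited files type as lincRNA or antisense and whose mean exceeded 10 CPM (reads scaled to the total of the library) in at least 1 of the 8 groups of 3 libraries. They were 101 of 8620 such rows among 55487 listed genes, with 67 of 5629 lincRNA rows and 34 of 2991 antisense rows. Of the 8620 rows, 6516 had no read in any library. The same limit kept 1.17% of the lincRNA and antisense rows against 40.6% of the protein-coding rows (8911 of 21936). The genes were thus chosen by their group means in these libraries, and their levels are given as a description. The genes just above the limit were 1700052K11Rik and 1300002E11Rik, with highest group means of 10.1 and 10.2 CPM, and those just below it were E230032D23Rik and 4933404O12Rik, at 9.96 and 9.78 CPM.

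All libraries came from Cas9-LP, a line grown from fetal liver progenitors of Ebf1-deficient mice that carry Cas9 at the Rosa26 locus, so every group, controls included, lacks Ebf1 and expresses Cas9. LP cells were kept on OP9 stroma, and Phase 1 cells on OP9-DLL4, which presents the Notch ligand DLL4. A retrovirus carried an sgRNA and human NGFR as a sorting mark. The guides aimed at luciferase (sgControl, written sgCont in the labels), Cbfb (sgCbfb), Ctcf (sgCTCF) or Med12 (sgMed12), with the vectors for a gene pooled, and hNGFR+CD45+ cells were sorted 5 days after transduction. Experiment 1 held LP and Phase 1 cells with sgControl or sgCbfb, and experiment 2 held LP cells only, with each of the 4 guide sets, each of the 8 groups being 3 libraries. The labels do not say whether the replicates were separate cultures, and the study's methods call them biologically independent without saying at which step they were separated. Because the cells were sorted in bulk, fewer cells of a kind and less RNA per cell cannot be told apart.

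A long non-coding RNA is transcribed, and usually capped and polyadenylated, without coding for a protein. Some act on chromatin near their own gene, such as Xist, which coats the X chromosome it silences, and Kcnq1ot1, which represses imprinted neighbours, while others are hosts whose introns or exons carry snoRNAs or microRNAs. In blood progenitors the RUNX factors bind DNA with their partner CBFβ, CTCF holds chromatin loops and domain borders, and MED12 belongs to the kinase module of Mediator, which links transcription factors to RNA polymerase II.

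Depth was lower in experiment 1, at 1363263 to 1743319 reads per library, than in experiment 2, at 3354483 to 4326782. A count of 0 therefore allowed up to 1.72 to 2.20 CPM in experiment 1 and 0.693 to 0.894 CPM in experiment 2 (3 reads, counting error only). Summed CPM of the progenitor markers was 945 to 1826 in every library, although single markers moved between groups, while those of OP9 stroma stayed at or below 7.78 CPM in experiment 1 and 42.7 CPM in experiment 2, and the B lineage gene Cd79a, 1 of the 7 progenitor genes, was at 0 in each group. The mean Cbfb level was 86.5 CPM in sgControl and 40.2 CPM in sgCbfb LP cells of experiment 1, 114 and 48.4 CPM in experiment 2, and 66.5 and 53.9 CPM in Phase 1 cells (limma adjusted p = 0.591 there). Ctcf averaged 391 CPM with sgControl and 306 CPM with sgCTCF (adjusted p = 0.021), and Med12 averaged 5.14 and 7.01 CPM with sgMed12 (adjusted p = 0.663). A tag at the 3′ end does not read the cut site, so these levels do not check the editing. Replicate 2 of sgMed12 resembled a sgControl library more (r = 0.977 over genes above 10 CPM) than the other sgMed12 libraries (mean r = 0.960), and Phase 1 sgControl replicate 3 had the lowest mean r with its own group (0.897).

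The transcripts were set beside the remaining rows of the same types and the expressed coding genes, as a description. The longest annotated transcript had a median of 2110 bases in the 101 genes, 891 bases in the other rows and 3490 bases in the protein-coding genes over the limit (GENCODE M21 on GRCm38, the mm10 build). A transcript with 1 exon only was the longest in 32.7% of them, against 7.52% of the other rows and 5.48% of the coding genes. A poly(A) signal (AATAAA or ATTAAA) lay in the last 50 bases of an annotated transcript in 81 genes, or 80.2%, against 45.5% of the other rows and 90.5% of the coding genes. A run of 12 A bases, at which oligo(dT) can prime inside a transcript, was present in 29 genes (28.7%), in 4.18% of the other rows and in 18.1% of the coding genes. Longer transcripts hold more such runs, and their part in the levels was not tested.

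In the genome, 36 of the 101 genes had exons overlapping a protein-coding gene, 34 of them on the opposite strand, of which 29 were typed antisense and 5 lincRNA. The strand setting of the authors' counting is not given in the sources used here, so reads of such pairs cannot be told apart. A coding gene started on the opposite strand within 1000 bases of the start of 20 genes. A snoRNA or scaRNA lay within 8 genes and a microRNA within 7.

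Together the 101 genes took a small share of the reads, 0.582% to 1.09% per library in experiment 1 and 0.497% to 0.977% in experiment 2. Malat1, a nuclear RNA of splicing speckles, and Xist held 58.7% of that share. Averaged over the 24 libraries, Malat1 stood at 2276 CPM and Xist at 1839 CPM, followed by Kcnq1ot1 at 342, Snhg9 at 253, Oip5os1 (the RNA also known as Cyrano) at 190, Gm32122 at 186, AU020206 at 155 and Brip1os at 120 CPM. Only 9 genes averaged above 100 CPM, 69 averaged below 20 CPM, and the median was 13.1 CPM. The limit was passed in all 8 groups by 39 genes and in only 1 group by 23. Levels are CPM of poly(A)-primed 3′ tags and were not divided by transcript length, and priming inside a transcript was not measured.

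**Figure D1:**
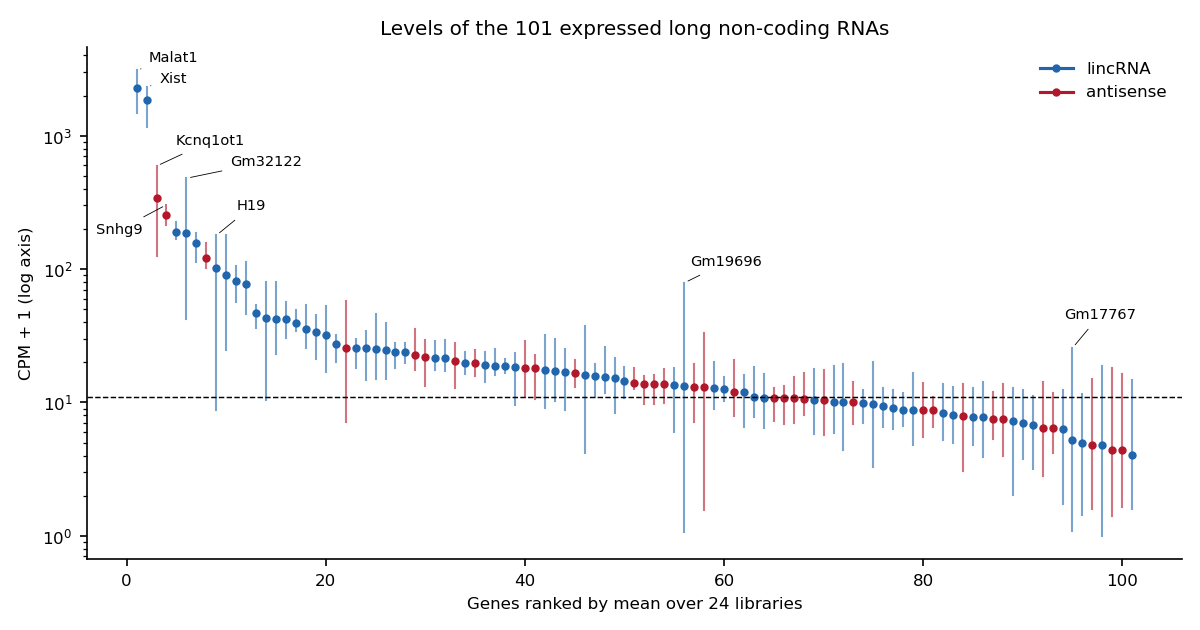
Level of each of the 101 long non-coding RNAs, ranked by the mean over 24 libraries, as CPM + 1 on a log axis. Points are means, lines run from the lowest to the highest group mean, colours separate lincRNA from antisense, and the dashed line is the limit of 10 CPM. Malat1 (mean 2276 CPM) and Xist (1839 CPM) stand above the rest.

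The highest group mean of an RNA was a median of 1.81 times its lowest in experiment 1 and 1.82 times in experiment 2. It was under 1.5 times the lowest for 28 genes in each, under 2 times for 59 of the 101 genes in experiment 1 and for 62 in experiment 2, and at least 4 times for 15 and 12. 8430426J06Rik had a lowest group mean of 0 in experiment 1 and so no ratio, and was left out of the median and the counts there. The median coefficient of variation between the 3 libraries of a group, over the genes above 10 CPM in it, was 23.0% to 28.3% in experiment 1 and 11.9% to 26.7% in experiment 2. A limma F test over the 4 groups passed at an adjusted p under 0.05 for 19 of 101 genes in experiment 1 (18.8%, against 11.8% of all genes tested) and for 42 of 100 in experiment 2 (42%, against 33.6%). The genes were chosen by the means of these same groups, and 23 passed the limit in 1 group only. The shares are therefore a description, and none was computed for coding genes above 10 CPM. All 101 genes passed the filter on low values in experiment 1 and 100 in experiment 2, where Gm19696 was too low.

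In the comparisons below, a gene rose or fell when its Benjamini-Hochberg adjusted p from limma over all genes was under 0.05, its mean changed more than 2-fold and its mean exceeded 10 CPM in either group. Log2 fold changes were fitted to log2(CPM + 1), so those of low genes are drawn towards 0, and are given ± SE. A gene that passed the limit only in the group where it is high had to differ between the groups, so counts are read beside those of all genes and not as support of their own. The same holds for the medians and the shares by sign. Of the 101 genes, 26 changed in at least 1 of the 7 comparisons of 2 groups (18 lincRNA, 8 antisense), 15 of them in 1 comparison only, and 75 in none. Gm32122 changed in 5 comparisons. Gm15657, A630091E08Rik, 5830418P13Rik, Gm6093 and Gm19696 changed in 3 each. Of the genes that changed, 8430426J06Rik, Gm4632, Gm15518, Gm33091, Gm17767, Dubr, Hoxaas3 and Gm37634 passed the limit only in the group where they were high. Gm15657 and A630091E08Rik passed it in 3 groups and Gm19696, Gm16046 and Lncpint in 2, in each case only groups where they were high. Their changes are likewise no support of their own.

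The effect of sgCbfb in LP cells was measured in both experiments, and the RNAs that rose with sgCbfb in experiment 1 were Gm32122, Gm15657, A630091E08Rik and 8430426J06Rik, while 5830418P13Rik fell. That was 5 of 101 genes (4.95%), against 1.69% of all genes tested (1.1% higher and 0.597% lower) and 2.37% of coding genes above 10 CPM. In experiment 2, Gm32122, Gm15657, A630091E08Rik, Gm26740 and Lncpint rose and H19, Gm34680 and 5830418P13Rik fell. That was 8 of 100 genes (8%), against 4.33% of all genes (2.67% higher and 1.65% lower) and 5.95% of coding genes above 10 CPM. The median change was 0.13 in experiment 1 and 0.12 in experiment 2 on the log2 scale, against 0.00 and -0.01 over all genes. Among 8 myeloid marker genes, the summed level was 27.9 to 47.8 CPM in sgControl and 412 to 501 CPM in sgCbfb LP libraries of experiment 1, and 24.8 to 29.5 against 658 to 730 CPM in experiment 2. Mrc1 and F13a1 carried most of it, with means of 221 and 190 CPM in sgCbfb LP cells of experiment 1. Elane and Ctsg were at 0 in the sgCbfb groups, and the monocyte and neutrophil gene Lyz2 averaged 0.382 and 3.85 CPM. Of the progenitor markers, the terminal transferase gene Dntt went from a mean of 39.4 to 251 CPM in LP cells of experiment 1 and from 30.6 to 278 CPM in experiment 2. The recombinase gene Rag1 went from 20.7 to 67.5 CPM and from 9.69 to 67.6 CPM with sgCbfb, while the B lineage gene Ighm went from 302 to 205 CPM and from 263 to 126 CPM. The part of myeloid cells or of such a shift between progenitor states in the results below was not tested.

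These libraries were primed at the poly(A) tail, so the annotated 3′ end of an RNA is shown as 60 bases (GENCODE M21, GRCm38, transcript strand from 5′ to 3′). They are the last bases of the annotated transcript that ends furthest downstream, or of the longest such transcript where several share that end. Capitals mark a poly(A) signal. The ends of 6 of the RNAs in this comparison follow.
Gm32122, chr8:96371727-96371786 (minus strand): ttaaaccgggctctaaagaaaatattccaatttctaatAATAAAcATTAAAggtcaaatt
Gm15657, chr16:33770430-33770489 (minus strand): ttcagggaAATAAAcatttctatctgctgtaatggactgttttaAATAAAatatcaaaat
8430426J06Rik, chr15:81242657-81242716 (minus strand): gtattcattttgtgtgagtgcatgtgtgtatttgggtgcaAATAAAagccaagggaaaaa
H19, chr7:142575529-142575588 (minus strand): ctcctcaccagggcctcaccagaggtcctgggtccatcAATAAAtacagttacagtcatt
A630091E08Rik, chr7:98543320-98543379 (minus strand): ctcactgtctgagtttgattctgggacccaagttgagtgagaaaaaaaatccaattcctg
Gm34680, chr16:32553649-32553708 (plus strand): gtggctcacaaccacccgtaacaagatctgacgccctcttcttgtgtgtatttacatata
The first 4 hold a signal, and the annotated ends of A630091E08Rik and Gm34680 hold neither hexamer. Those of 5830418P13Rik and Lncpint, which also changed and are not shown, hold neither. An annotated end without one may not be the end in use, and where the reads fell was not analysed here.

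Gm32122 (ENSMUSG00000110633; chr8:96371727-96403862, minus strand) is a lincRNA whose nearest coding gene, Got2, lies 483180 bases away. In LP cells of experiment 1 it stood at 209, 162 and 119 CPM with sgControl and at 643, 388 and 405 CPM with sgCbfb. In experiment 2 it stood at 122, 88.9 and 80.8 CPM and at 216, 302 and 240 CPM. Each sgCbfb library lay above each sgControl library of its experiment. The log2 fold change was 1.54 ± 0.22 in experiment 1 (limma adjusted p = 0.000106) and 1.38 ± 0.25 in experiment 2 (adjusted p = 0.000257). Got2, which makes a mitochondrial transaminase, did not pass the test and averaged 168 and 169 CPM in experiment 1.

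Gm15657 (ENSMUSG00000090214; chr16:33770430-33796874, minus strand) was nearly silent in sgControl LP cells, at 0.590, 1.86 and 5.78 CPM, and reached 37.4, 25.2 and 33.5 CPM with sgCbfb. In experiment 2 the levels were 0.791, 5.32 and 3.17 CPM against 27.1, 38.1 and 24.7 CPM. The groups did not overlap in either experiment, with log2 fold changes of 3.38 ± 0.48 (limma adjusted p = 0.000117) and 3.08 ± 0.40 (adjusted p = 2.34e-06). Its exons overlap 318 bases of Heg1, on the opposite strand. Heg1, a transmembrane protein of endothelial cells, rose too, from a mean of 6.20 to 21.8 CPM in experiment 1 (adjusted p = 0.00157) and from 9.53 to 24.4 CPM in experiment 2 (adjusted p = 0.000671). Without strand, reads from the overlap cannot be assigned to either gene.

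A630091E08Rik (ENSMUSG00000055446; chr7:98543320-98562990, minus strand) followed the same course at a lower level. It gave 0.590, 1.24 and 1.28 CPM with sgControl and 14.8, 11.5 and 7.85 CPM with sgCbfb in experiment 1. In experiment 2 it gave 1.05, 0.295 and 2.19 CPM against 8.65, 11.8 and 9.82 CPM. In experiment 1 the control value rests on 5 reads in 3 libraries against 52, a ratio of pooled levels of 11.1 (exact 95% interval 4.46 to 35.6, counting error only). The log2 fold changes were 2.58 ± 0.51 (limma adjusted p = 0.00427) and 2.43 ± 0.39 (adjusted p = 5.86e-05), and without replicate 1 of LP sgCbfb in experiment 1 or replicate 2 of sgCbfb in experiment 2 its mean no longer exceeded 10 CPM (adjusted p = 0.0366 and 0.000886). Its neighbour Emsy, 24147 bases away, did not pass the test in either experiment.

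8430426J06Rik (ENSMUSG00000115970; chr15:81242657-81312866, minus strand) had no read in any of the 3 sgControl LP libraries of experiment 1 and stood at 19.7, 20.1 and 13.6 CPM with sgCbfb, at least 9.61-fold higher with the control set at 3 reads per library (limma adjusted p = 1.35e-05). Its experiment 2 levels were 0.791, 1.18 and 0.243 CPM with sgControl and 5.07, 6.17 and 6.55 CPM with sgCbfb. There the adjusted p was 0.000272, but neither mean exceeded 10 CPM, so it did not count as risen. The groups did not overlap in either experiment.

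Among the RNAs that fell, 5830418P13Rik (ENSMUSG00000086236; chr9:103423578-103461260, plus strand) stood at 29.5, 36.5 and 19.3 CPM with sgControl and at 9.17, 6.88 and 7.14 CPM with sgCbfb in experiment 1. In experiment 2 it went from 16.6, 18.0 and 14.6 CPM to 5.37, 6.44 and 6.55 CPM. The log2 fold changes were -1.72 ± 0.31 (limma adjusted p = 0.00178) and -1.29 ± 0.25 (adjusted p = 0.00049), with no overlap of the groups in either. Its exons overlap 201 bases of Bfsp2 on the opposite strand, a lens filament gene at means of 3.34 and 7.51 CPM in sgControl and sgCbfb LP cells of experiment 1, which did not pass the test there.

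H19 (ENSMUSG00000000031; chr7:142575529-142578143, minus strand) is the maternally expressed imprinted RNA next to Igf2, and it carries miR-675. In experiment 1 it stood at 157, 143 and 123 CPM with sgControl and at 104, 74.6 and 62.1 CPM with sgCbfb. The groups did not overlap, and the log2 fold change of -0.83 ± 0.18 (limma adjusted p = 0.00764) did not reach the 2-fold threshold. In experiment 2 it fell from 104, 94.5 and 66.0 CPM to 1.79, 15.0 and 6.30 CPM, a log2 fold change of -3.67 ± 0.41 (adjusted p = 2.24e-07). The lowest sgCbfb library of experiment 1 thus stood at 62.1 CPM and the highest of experiment 2 at 15.0 CPM. The difference between the experiments was not tested.

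Gm34680 (ENSMUSG00000116957; chr16:32550211-32553708, plus strand), which lies within Zdhhc19, also changed in experiment 2, from 78.3, 86.5 and 57.7 CPM to 7.75, 10.7 and 10.1 CPM. The log2 fold change was -2.83 ± 0.20 (limma adjusted p = 7.42e-11). In experiment 1 its levels were 106, 68.7 and 60.4 CPM with sgControl and 38.1, 20.1 and 13.6 CPM with sgCbfb. The groups did not overlap there either, and the adjusted p was 0.0809, with a log2 fold change of -1.75 ± 0.52. Zdhhc19, which encodes a palmitoyltransferase, was listed at 0 in both groups of experiment 2.

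**Figure D2:**
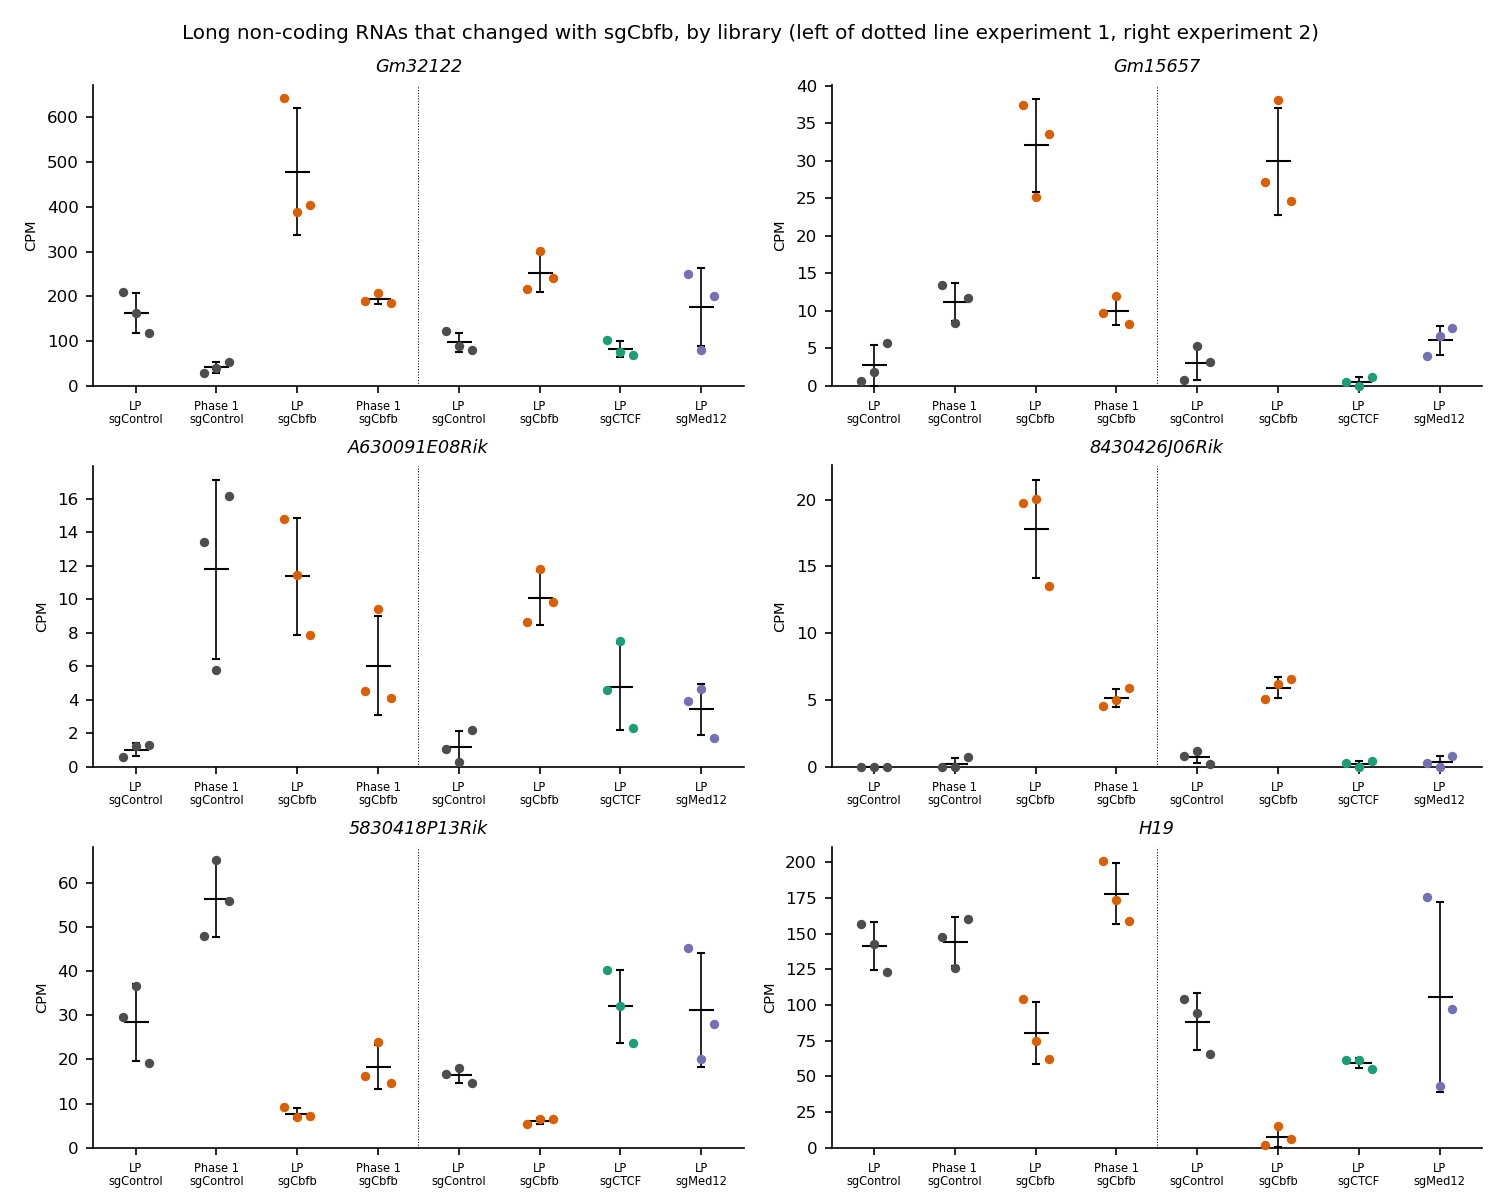
CPM of each library (points) with the group mean and SD (bars, 3 libraries) for 6 RNAs, experiment 1 left and experiment 2 right of the dotted line. Gm15657 stands at 0.590 to 5.78 CPM in the sgControl and at 25.2 to 37.4 CPM in the sgCbfb LP libraries of experiment 1.

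Gm26740 rose in experiment 2 from 10.5, 8.27 and 12.4 CPM to 21.2, 22 and 24.2 CPM (log2 fold change 1.05 ± 0.24, limma adjusted p = 0.00274). Lncpint, a p53-regulated RNA, rose there from 2.90, 5.32 and 8.52 CPM to 12.2, 15.3 and 13.4 CPM (1.24 ± 0.36, adjusted p = 0.0217). Neither group pair overlapped. Gm26740 changed less than 2-fold without replicate 2 of sgControl (adjusted p = 0.0227), and the adjusted p of Lncpint was 0.0529 to 0.16 without replicate 1 or 2 of sgControl or replicate 2 or 3 of sgCbfb and 0.0878 without the filter on low values. Without the fold threshold 13 genes passed in experiment 2, against 9.65% of all genes. Among the additional ones were Malat1 (0.73 ± 0.22, adjusted p = 0.0299), Kcnq1ot1 (0.89 ± 0.23, adjusted p = 0.00945), Morrbid (0.80 ± 0.26, adjusted p = 0.0428) and AU020206 (-0.40 ± 0.11, adjusted p = 0.0159). Morrbid is an RNA that represses Bcl2l11 in short-lived myeloid cells. In LP cells of experiment 1 Morrbid went the other way, with means of 9.12 CPM with sgControl and 7.44 CPM with sgCbfb.

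The experiments used separate libraries, so their sgCbfb effects can be set side by side. Over the 100 genes tested in both, the log2 fold changes had r = 0.70, against 0.73 over 9263 genes above 10 CPM, as a description across genes that are not independent. Of the 100, 58 changed in the same direction, or 58%, against 68.2% of those 9263 genes. Gm32122, Gm15657, A630091E08Rik and 5830418P13Rik passed in both experiments, all 4 in the same direction.

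**Figure D3:**
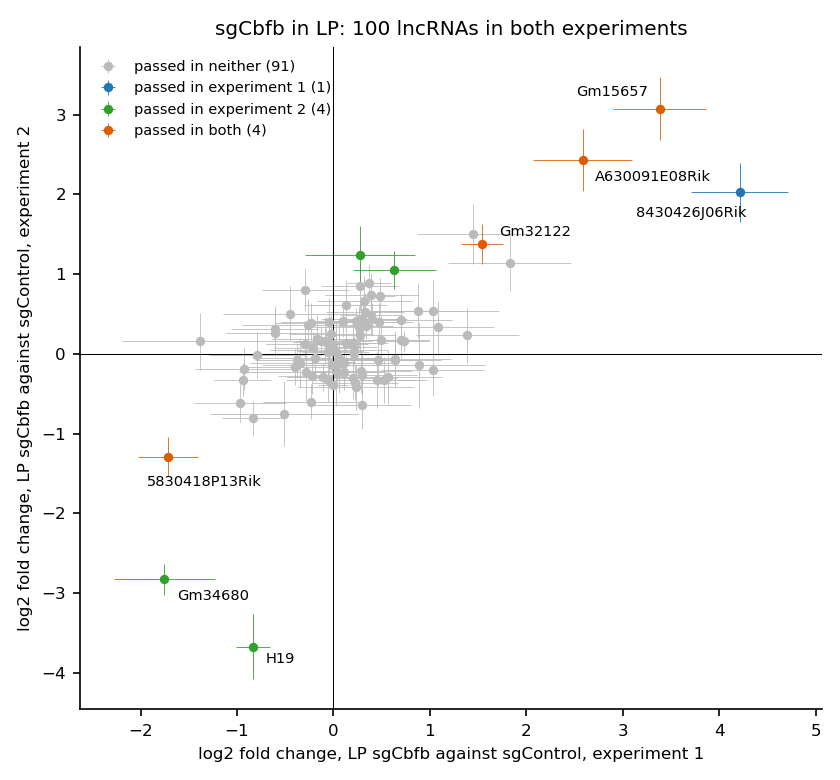
Log2 fold change of sgCbfb against sgControl in LP cells for the 100 RNAs tested in both experiments, experiment 1 on the horizontal and experiment 2 on the vertical axis, with bars of 1 SE. Colours mark those that passed in both, in 1 or in neither experiment, and the 4 that passed in both lie on the same side of 0 on either axis.

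Promoters were at hand in RefSeq (GRCm38.p6, from 250 bases before to 50 after a start) for 50 of the 101 genes, with 58 promoters. The letters TGTGGT on either strand, the core of the RUNX motif, were present in 13.8% of these and in 16.8% of all promoters of that length. Among the genes that passed with sgCbfb, only Gm26740 had TGTGGT in these windows, in 2 of 9 promoters from 6 genes. The 2 windows overlap and hold the same copy of the letters.

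Notch stimulation was measured against LP cells, first in sgControl cells of experiment 1. In Phase 1 cells Gm19696, Gm15518, Gm4632, A630091E08Rik, Gm15657 and Gm16046 rose, and Gm32122, Gm6093, Gm29684 and Gm20342 fell. That was 10 of 101 genes (9.90%), against 3.39% of all genes (1.65% higher and 1.74% lower) and 4.79% of coding genes above 10 CPM. The summed mean of 7 Notch-responsive genes was 45.2 CPM in LP and 925 CPM in Phase 1 sgControl cells. With sgCbfb, Gm19696 and H19 rose in Phase 1 and Gm32122, Gm6093, Gm29684, Gm33091 and AI480526 fell, 7 of 101 genes (6.93%). The background was 1.19% of all genes (0.74% higher and 0.453% lower) and 1.62% of coding genes above 10 CPM. The Notch genes summed to 76.9 CPM in LP and 340 CPM in Phase 1 sgCbfb cells. The median change was -0.16 with sgControl and -0.20 with sgCbfb, against -0.07 and -0.01 over all genes. With only the LP and Phase 1 sgControl libraries in the fit, 5 of the 10 genes passed with sgControl, and Gm4632, Gm15518, Gm16046, Gm20342 and Gm15657 did not (limma adjusted p = 0.0511 to 0.162). Without replicate 1 of sgControl LP, 6 passed. Gm15657 was lost without replicate 1 or 2 of sgControl LP (adjusted p = 0.0886 and 0.0539), and A630091E08Rik no longer exceeded 10 CPM without replicate 3 of Phase 1 sgControl. With sgCbfb, 11 passed without replicate 3 of Phase 1 sgControl and 4 without replicate 1 of LP sgCbfb.

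The 3′ ends of 6 RNAs that changed between the stages are given as above, where those of Gm32122 and A630091E08Rik stand already, with a poly(A) signal in capitals.
Gm19696, chr17:84134033-84134092 (minus strand): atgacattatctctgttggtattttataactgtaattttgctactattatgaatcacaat
Gm15518, chr16:49758576-49758635 (minus strand): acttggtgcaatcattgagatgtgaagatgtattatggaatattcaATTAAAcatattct
Gm4632, chr14:79178894-79178953 (minus strand): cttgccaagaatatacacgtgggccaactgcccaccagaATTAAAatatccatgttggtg
Gm6093, chr13:33562486-33562545 (minus strand): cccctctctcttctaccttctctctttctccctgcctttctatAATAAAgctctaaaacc
Gm29684, chr10:95120582-95120641 (minus strand): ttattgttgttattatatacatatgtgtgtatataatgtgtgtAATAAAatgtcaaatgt
Gm33091, chr10:95134290-95134349 (minus strand): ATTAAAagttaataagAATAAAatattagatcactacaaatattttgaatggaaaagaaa
Gm19696 has neither hexamer in its annotated end, and the other ends hold AATAAA or ATTAAA.

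Gm19696 (ENSMUSG00000117485; chr17:84134033-84156440, minus strand) was close to absent from LP cells, at 1.18, 0 and 1.28 CPM, and stood at 91.1, 69.7 and 72.6 CPM in Phase 1 sgControl cells. With sgCbfb the levels were 1.41, 0 and 0.713 CPM in LP and 15.6, 27.0 and 11.8 CPM in Phase 1. Pooled, the stage ratio was 94.4 with sgControl (exact 95% interval 36.5 to 348, from 336 and 4 reads) and 27.4 with sgCbfb (9.07 to 135, from 87 and 3 reads). Within Phase 1 cells it fell with sgCbfb, by 2.11 ± 0.51 on the log2 scale (limma adjusted p = 0.0118, and 0.0543 or 0.0806 without replicate 1 or 3 of Phase 1 sgCbfb), and the stage by sgCbfb term was -2.02 (adjusted p = 0.261). All 3 Phase 1 sgCbfb libraries lay below the sgControl ones and above every LP library. Its nearest coding gene, 27491 bases away, is Zfp36l2, which encodes an RNA-binding protein that speeds mRNA decay. Zfp36l2 fell with sgCbfb in Phase 1 from a mean of 204 to 90.5 CPM (adjusted p = 0.000112).

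Gm15518 (ENSMUSG00000087066; chr16:49758576-49798870, minus strand) stood at 0.590, 2.48 and 0.642 CPM in LP and 19.8, 20.6 and 5.87 CPM in Phase 1 sgControl cells. In Phase 1 sgCbfb cells it was at 1.95, 0 and 0 CPM, 3 reads against 68, a ratio of 25.3 (exact 95% interval 8.29 to 126). It therefore rose with the stage (limma adjusted p = 0.0146, and 0.057 to 0.0728 without replicate 1 or 3 of LP sgControl or replicate 2 of Phase 1 sgControl) and fell with sgCbfb in Phase 1 (adjusted p = 0.00368). Ift57, which it overlaps by 225 bases on the opposite strand, went the other way between the stages, falling from 72.4 to 27.7 CPM (adjusted p = 0.000834).

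Gm4632 (ENSMUSG00000115111; chr14:79178894-79199190, minus strand), inside Vwa8 on the opposite strand, had a like pattern, with 1.77, 3.10 and 1.28 CPM in LP and 14.8, 9.03 and 27.1 CPM in Phase 1 sgControl cells against 2.59, 1.89 and 1.18 CPM in Phase 1 sgCbfb cells. It rose by 2.48 ± 0.53 with the stage (limma adjusted p = 0.00492, and 0.0511 with only the groups compared in the fit) and fell by 2.54 ± 0.53 with sgCbfb in Phase 1 (adjusted p = 0.00415). These contrasts share the Phase 1 sgControl libraries, so they are not independent.

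Among the RNAs lower in Phase 1, Gm32122 stood at 29.6, 40.6 and 53.5 CPM with sgControl, below all 3 LP libraries, and at 191, 208 and 185 CPM with sgCbfb. It fell with the stage in sgControl cells by 1.96 ± 0.22 (limma adjusted p = 1.89e-06) and in sgCbfb cells by 1.26 ± 0.22 (adjusted p = 0.00123). Within Phase 1 it rose with sgCbfb, by 2.25 ± 0.22 (adjusted p = 3.78e-07).

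Gm6093 (ENSMUSG00000112963; chr13:33562486-33569317, minus strand) had 141, 105 and 76.4 CPM in LP and 20.5, 21.9 and 28.6 CPM in Phase 1 sgControl cells. With sgCbfb it had 236, 159 and 140 CPM in LP and 66.8, 74.8 and 39.5 CPM in Phase 1. The stage effect was -2.11 ± 0.26 with sgControl (limma adjusted p = 6.43e-06) and -1.56 ± 0.26 with sgCbfb (adjusted p = 0.000765). In Phase 1 sgCbfb cells it lay above the sgControl libraries throughout (1.28 ± 0.26, adjusted p = 0.00259).

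Gm29684 (ENSMUSG00000112481; chr10:95120582-95145825, minus strand) stood at 32.5, 16.1 and 25 CPM in LP and 2.82, 4.52 and 2.20 CPM in Phase 1 sgControl cells, and at 51.5, 38.4 and 19.3 against 5.84, 5.66 and 7.66 CPM with sgCbfb. It fell with the stage under both guides (limma adjusted p = 0.000353 and 0.00344, the second 0.0501 without replicate 1 of LP sgCbfb). Gm33091 (ENSMUSG00000112501; chr10:95134290-95136874) lies inside its span on the same strand. Gm33091 fell with the stage in sgCbfb cells, from 14.8, 9.18 and 7.85 CPM to 0, 2.51 and 0 CPM (adjusted p = 0.00631, ratio of pooled levels 12.7, interval 4.65 to 48.5). Its adjusted p was 0.0519 to 0.0528 without replicate 1 of LP sgCbfb or replicate 1 or 3 of Phase 1 sgCbfb. Cradd, a coding gene 28921 bases from Gm29684 that links death domains to caspases, fell with the stage in sgControl cells from 80.4 to 23.7 CPM (adjusted p = 3.05e-06).

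**Figure D4:**
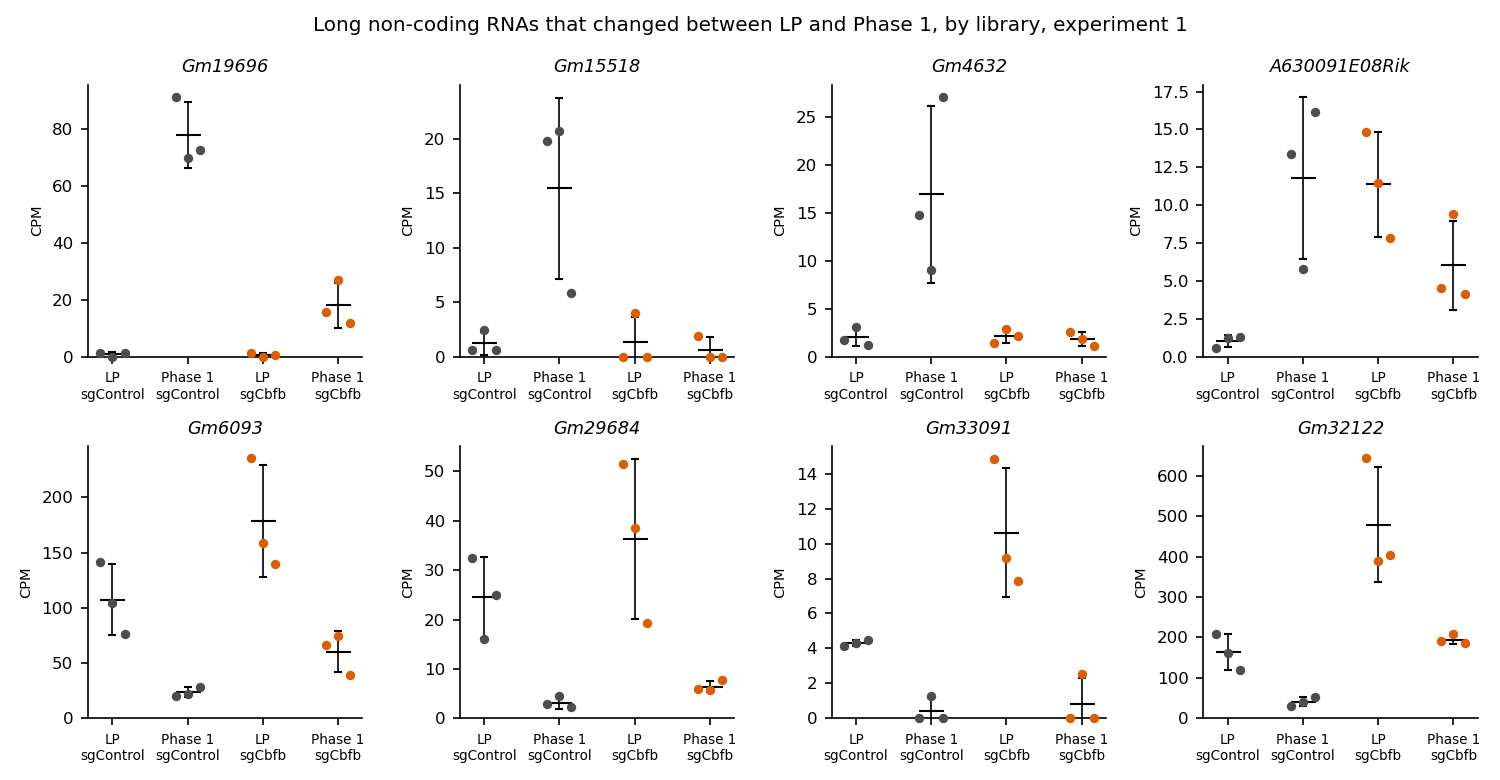
CPM of each library (points) with the group mean and SD (bars, 3 libraries) for 8 RNAs in LP and Phase 1 cells of experiment 1. Gm19696 stands at 0 to 1.28 CPM in LP and at 69.7 to 91.1 CPM in Phase 1 sgControl libraries.

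The remaining stage changes were smaller or noisier. Gm16046 rose with sgControl from 1.77, 1.24 and 2.57 CPM to 8.47, 8.39 and 13.2 CPM (limma adjusted p = 0.0459), and Gm20342 fell from 48.4, 32.8 and 29.5 CPM to 11.3, 24.5 and 11.7 CPM (adjusted p = 0.0407). The call of Gm16046 was lost in 8 of 12 fits that left out 1 library, those without any LP or Phase 1 sgControl library, replicate 1 of LP sgCbfb or replicate 3 of Phase 1 sgCbfb (adjusted p = 0.0554 to 0.149). That of Gm20342 was lost in 5, those without any LP sgControl library, replicate 1 of Phase 1 sgControl or replicate 1 of Phase 1 sgCbfb (adjusted p = 0.0529 to 0.19). H19, which rose in sgCbfb cells, changed less than 2-fold without replicate 3 of LP sgCbfb. AI480526 fell with the stage in sgCbfb cells, from 40.9, 20.6 and 25 CPM to 7.13, 6.28 and 14.1 CPM (adjusted p = 0.045). Its call was lost in 7 of 12 fits that left out 1 library (adjusted p up to 0.27). Those were the fits without replicate 1 or 2 of LP sgControl, any LP sgCbfb library, or replicate 1 or 2 of Phase 1 sgCbfb. The groups of Gm16046, Gm20342 and AI480526 did not overlap in these comparisons.

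The effect of sgCbfb was also compared between the stages in experiment 1. Within Phase 1 cells Gm32122 and Gm6093 rose and 5830418P13Rik, Gm19696, Gm4632 and Gm15518 fell, 6 of 101 genes (5.94%) against 3.52% of all genes (1.96% higher and 1.56% lower) and 5.05% of coding genes above 10 CPM. 5830418P13Rik went from 48.0, 65.2 and 55.7 CPM to 16.2, 23.9 and 14.7 CPM (log2 fold change -1.59 ± 0.31, limma adjusted p = 0.00222), without overlap. The myeloid markers summed to 28.4 to 43.3 CPM with sgControl and 312 to 324 CPM with sgCbfb in these cells. The test of the difference itself passed for 3 of 101 genes (2.97%), against 1.19% of all genes (0.589% with a positive and 0.597% with a negative term) and 1.68% of coding genes above 10 CPM. It was positive for H19 and negative for Gm15657 and A630091E08Rik. It passed for 5 genes without replicate 3 of Phase 1 sgControl and for 1 without replicate 1 of Phase 1 sgCbfb.

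Gm15657 had 13.4, 8.39 and 11.7 CPM with sgControl and 9.73, 11.9 and 8.25 CPM with sgCbfb in Phase 1 cells, where the groups overlapped (-0.14, limma adjusted p = 0.922), while it rose with sgCbfb in LP cells. The stage by sgCbfb term was -3.52 ± 0.68 (adjusted p = 0.00702). A630091E08Rik had 13.4, 5.81 and 16.1 CPM against 4.54, 9.43 and 4.13 CPM in Phase 1 (-0.84, adjusted p = 0.429), and its term was -3.42 ± 0.73 (adjusted p = 0.0157, and 0.0524 to 0.0555 without replicate 1 of LP sgCbfb or replicate 1 or 3 of Phase 1 sgCbfb). Both RNAs thus rose with Notch stimulation alone and with sgCbfb alone in LP cells. H19 had 148, 126 and 160 CPM with sgControl and 201, 173 and 159 CPM with sgCbfb in Phase 1 (0.30, adjusted p = 0.404), and its term was 1.13 ± 0.25 (adjusted p = 0.0207). That call was lost in 7 of 12 fits that left out 1 library, with an adjusted p of up to 0.0865, namely those without replicate 1 or 2 of LP sgControl, 2 of Phase 1 sgControl, 2 or 3 of LP sgCbfb, and 1 or 2 of Phase 1 sgCbfb. The term of Gm15657 passed in all 12.

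With sgCTCF in LP cells of experiment 2, Gm17767 and Dubr rose and Snhg6 fell, 3 of 100 genes (3%) against 2.43% of all genes (1.81% higher and 0.622% lower) and 3.5% of coding genes above 10 CPM. The share of these RNAs that passed was thus close to that of all genes. Gm17767 and Dubr passed the limit of 10 CPM in the sgCTCF group only, so their rise is no support of its own. Only Gm17767 passed when replicate 3 of sgControl or replicate 1 of sgCTCF was left out. The 3′ ends of the RNAs that rose are given with the signal in capitals.
Gm17767, chr1:51507086-51507145 (minus strand): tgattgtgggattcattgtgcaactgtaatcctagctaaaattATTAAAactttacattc
Dubr, chr16:50719294-50719353 (minus strand): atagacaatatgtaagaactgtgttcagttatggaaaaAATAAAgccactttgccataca
Each holds 1 hexamer near its end.

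Gm17767 (ENSMUSG00000099413; chr1:51507086-51596718, minus strand) stood at 0.263, 0 and 0 CPM with sgControl and at 31.4, 25.1 and 17.3 CPM with sgCTCF, 282 reads against 1, a ratio of pooled levels of 273 (exact 95% interval 48.7 to 10800). The log2 fold change, which depends on the pseudocount for so low a control, was 4.53 ± 0.36 (limma adjusted p = 5.49e-09). With sgMed12 the levels were 1.41, 2.91 and 1.70 CPM, and with sgCbfb 0, 0 and 0.755 CPM. In sgControl LP cells of experiment 1 it was at 0, 2.48 and 7.71 CPM, so a low level without sgCTCF occurred in that experiment. Its nearest coding gene, Nabp1, a single-stranded DNA-binding protein 28661 bases away, averaged 20.9 CPM with sgControl and 39.5 CPM with sgCTCF (adjusted p = 0.0024), short of the 2-fold threshold.

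Dubr (ENSMUSG00000022639; chr16:50719294-50732773, minus strand), an RNA first described in muscle differentiation, rose from 5.54, 6.20 and 3.41 CPM to 11, 10.3 and 13.2 CPM (1.07 ± 0.30, limma adjusted p = 0.0206). Its adjusted p was 0.0606 to 0.13 without replicate 3 of sgControl or replicate 1 or 3 of sgCTCF. Snhg6, a snoRNA host, fell from 44.6, 18.9 and 29.2 CPM to 14, 13.6 and 16.4 CPM (-0.95 ± 0.26, adjusted p = 0.0182), without overlap, and its adjusted p was 0.0628 to 0.171 without replicate 1 or 3 of sgControl or replicate 1 or 2 of sgCTCF. Without the fold threshold 12 genes passed (8.23% of all genes did), 8 of them lower. Kcnq1ot1 was lower with sgCTCF, at 103, 140 and 131 CPM against 243, 155 and 234 CPM (-0.74 ± 0.23, adjusted p = 0.0402), as were Rab26os (-0.89 ± 0.20, adjusted p = 0.00396) and Jpx, an RNA that promotes Xist (-0.75 ± 0.24, adjusted p = 0.0479). A positive log2 fold change was found for 32% of the 100 genes, against 47.9% of all genes, with a median of -0.10 against -0.02.

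With sgMed12, 6 of 100 genes rose (6%), against 1.03% of all genes (0.668% higher and 0.364% lower) and 0.934% of coding genes above 10 CPM, namely Kcnq1ot1, Mir17hg, Lncpint, Hoxaas3, Gm15834 and Gm37634. None fell by limma or edgeR, and 8 genes had a lower level at an unadjusted p under 0.05, against 33 with a higher one. Without the fold threshold 10 passed, all of them higher, against 6.24% of all genes. With only the sgControl and sgMed12 libraries in the fit, none of the 6 passed by limma (adjusted p = 0.112 for Kcnq1ot1, the lowest of the 100 genes), although 32 genes had an unadjusted p under 0.05, and edgeR, run only over all 4 groups, passed 9. Without the filter on low values 2 passed, Kcnq1ot1 and Hoxaas3. The count was 17 without replicate 2 of sgMed12, 2 and 1 without replicates 1 and 3, and 3 without replicate 1 of sgControl. A positive log2 fold change was found for 71% of the 100 genes, against 47.8% of all genes, with a median of 0.32 against -0.02. These libraries also differed in makeup. Summed CPM of rows typed TEC, a class of annotated transcripts that await experimental proof, was 5001, 2192 and 4562 in the sgMed12 libraries and 1504 to 2096 in the sgControl ones, and that of mitochondrial genes was 136600, 84440 and 111800 against 75040 to 80310. In each case replicate 2 lay nearest to sgControl, and the part of these differences in the results was not tested.

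Kcnq1ot1 (ENSMUSG00000101609; chr7:143203458-143296549, minus strand) is annotated as 1 exon of 93092 bases antisense to Kcnq1, and its end is given with the signals in capitals.
Kcnq1ot1, chr7:143203458-143203517 (minus strand): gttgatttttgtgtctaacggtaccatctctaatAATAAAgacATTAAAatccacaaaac
It stood at 804, 300 and 668 CPM with sgMed12 and 243, 155 and 234 CPM with sgControl, with no overlap (1.39 ± 0.23, limma adjusted p = 0.00102). With sgCbfb it stood at 322, 369 and 471 CPM, so sgCTCF was below and sgCbfb and sgMed12 above the sgControl libraries, which these contrasts share. Lncpint (ENSMUSG00000044471; chr6:31082565-31220488, minus strand) rose to 23.2, 9.30 and 22.4 CPM (1.55 ± 0.36, adjusted p = 0.0134, and 0.0688 to 0.0922 without replicate 1 of sgControl or replicate 1 or 3 of sgMed12).

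Mir17hg (ENSMUSG00000089726; chr14:115042879-115046727, plus strand) is the host of the miR-17-92 cluster, which restrains apoptosis in developing lymphocytes. Mature microRNAs are not read by 3′ mRNA libraries, so only the host level was measured. The 5′ or 3′ arms of that cluster are listed because the host changed (RefSeq, 5′ to 3′), with the seed, bases 2 to 8, in capitals.
mmu-miR-17-5p: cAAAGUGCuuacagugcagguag
mmu-miR-20a-5p: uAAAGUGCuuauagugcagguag
mmu-miR-18a-5p: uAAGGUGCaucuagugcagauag
mmu-miR-19a-3p: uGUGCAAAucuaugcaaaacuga
mmu-miR-19b-3p: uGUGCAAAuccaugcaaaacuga
mmu-miR-92a-3p: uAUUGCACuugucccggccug
miR-17-5p and miR-20a-5p share the seed AAAGUGC, and miR-19a-3p and miR-19b-3p share GUGCAAA. The host went from 39.6, 27.8 and 47.0 CPM with sgControl to 97.8, 40.4 and 97.1 CPM with sgMed12 (0.95 ± 0.23, limma adjusted p = 0.0173, and 0.0914 to 0.128 without replicate 2 of sgControl or replicate 1 or 3 of sgMed12). Replicate 2 lay within the range of the sgControl libraries and the other sgMed12 libraries above it.

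Hoxaas3 (ENSMUSG00000085696; chr6:52175217-52215076, plus strand) overlaps exons of Hoxa3 by 297 and of Hoxa7 by 586 bases on the opposite strand and rose from 1.58, 6.20 and 3.90 CPM to 13, 11 and 15.9 CPM (1.66 ± 0.34, limma adjusted p = 0.00651, and 0.0519 without replicate 3 of sgMed12), without overlap. Hoxa5 on the opposite strand averaged 231 CPM with sgControl and 382 CPM with sgMed12 (adjusted p = 0.00184), short of the 2-fold threshold. Gm15834 (ENSMUSG00000085054; chr1:58505148-58523230, plus strand) rose from 4.48, 3.84 and 5.84 CPM to 10.7, 9.30 and 15.3 CPM (1.15 ± 0.29, adjusted p = 0.0204, and 0.0583 to 0.123 without replicate 1 or 2 of sgControl or replicate 1 or 3 of sgMed12). Gm37634 (ENSMUSG00000102864) went from 2.11, 1.48 and 3.65 CPM to 22.3, 2.62 and 17 CPM (1.80 ± 0.53, adjusted p = 0.0398), and replicate 2 overlapped the controls. Its call was lost in 7 of 12 fits that left out 1 library, those without any sgControl library, replicate 1 or 2 of sgCTCF, or replicate 1 or 3 of sgMed12, with an adjusted p of up to 0.219. It is 1 of the 34 genes with exons opposite a coding gene, whose reads cannot be assigned without strand.

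**Figure D5:**
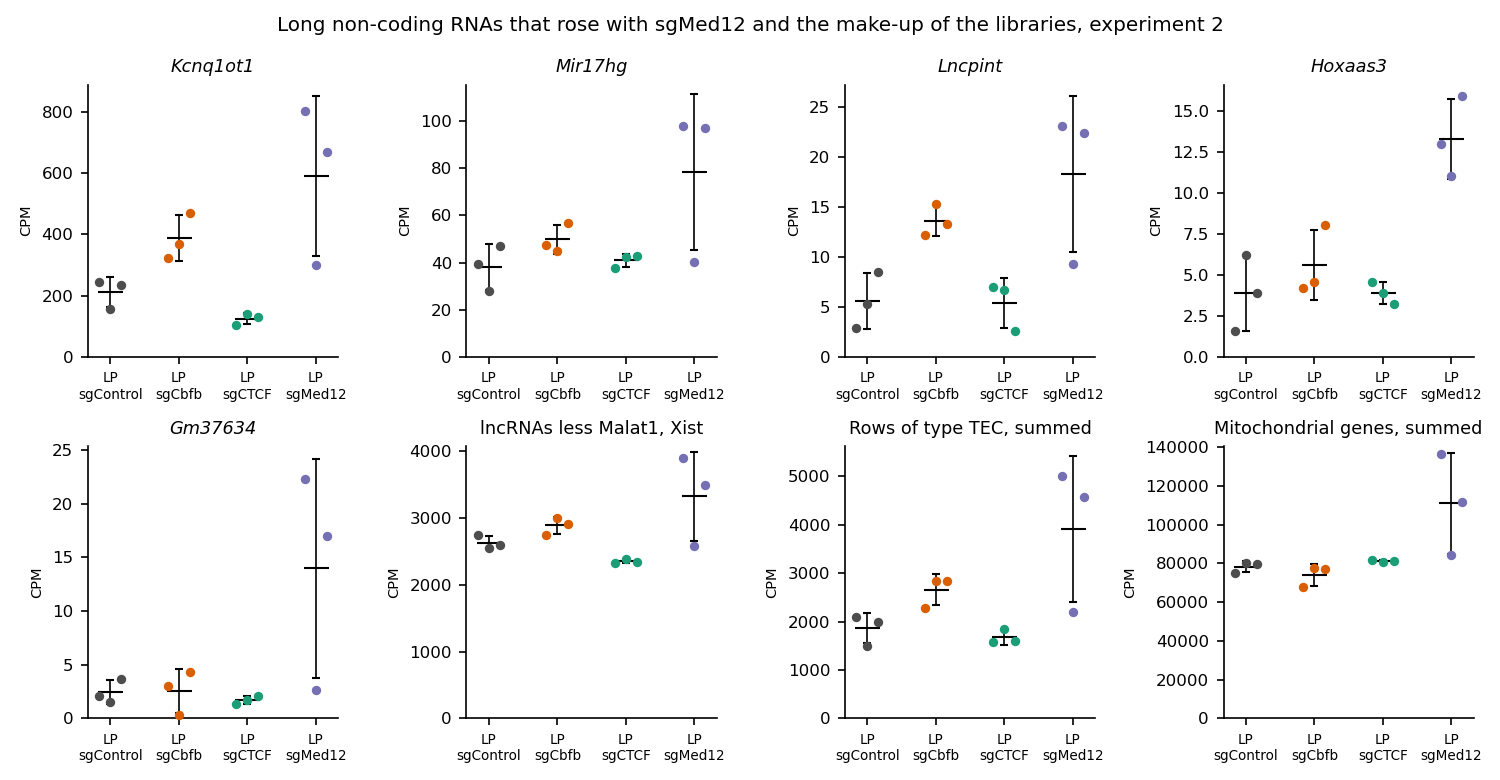
CPM of each library of experiment 2 (points) with the group mean and SD (bars, 3 libraries) for 5 RNAs that rose with sgMed12 and for 3 sums over each library, the lncRNAs without Malat1 and Xist, the TEC rows and the mitochondrial genes. Kcnq1ot1 stands at 300 to 804 CPM with sgMed12 and at 155 to 243 CPM with sgControl, and replicate 2 of sgMed12 is the lowest of its group in each panel.

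Named lists show how the known RNAs behaved. Of 20 snoRNA hosts, 6 were among the 101 genes (Snhg6, Snhg9, Snhg12, Snhg15, Snhg20 and Epb41l4aos), and other hosts such as Gas5 are typed processed_transcript in the files. In the 8 comparisons, Snhg6 with sgCTCF was the only one of the 6 to pass, and Snhg9, the most abundant, averaged 213 to 302 CPM over the groups. By adjusted p alone Epb41l4aos was lower with sgCTCF (-0.50 ± 0.14, limma adjusted p = 0.0158) and Snhg12 higher with sgMed12 (0.70 ± 0.16, adjusted p = 0.0136).

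Of 11 RNAs of nuclear architecture and X inactivation, 6 were among the 101 (Malat1, Neat1, Xist, Jpx, Ftx and Kcnq1ot1), and Kcnq1ot1 with sgMed12 was the only one to pass. Xist averaged 1414 CPM with sgControl and 2038 CPM with sgMed12 in experiment 2 (0.49 ± 0.14, limma adjusted p = 0.0355), with libraries at 2460, 1445 and 2209 CPM against 1428, 1507 and 1306 CPM, which overlapped. Neat1, the scaffold of paraspeckles, averaged 45.4 to 113 CPM over the groups and did not pass in any comparison. The imprinted list gave 3 of 9 (H19, Airn and Kcnq1ot1). Airn, the antisense repressor of Igf2r, averaged 12.2 to 28.4 CPM and did not pass.

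Of 10 microRNA hosts, Mir17hg and Mir142hg were among the 101, with Mir142hg at 20.2 to 44.2 CPM over the groups. Of 12 RNAs tied to blood, Hox genes, Myc or p53, 4 were among them, Morrbid, Lncpint, Trp53cor1 and Dubr. Lncpint passed with sgCbfb and sgMed12 in experiment 2 and Dubr with sgCTCF, each call being lost without some single libraries. Trp53cor1, the p53-induced lincRNA-p21, averaged 20.3 CPM in LP and 9.51 CPM in Phase 1 sgControl cells and did not pass in any comparison. Coding genes that act with such RNAs were read from 5 lists. Over these (Xist-binding, paraspeckle and snoRNP proteins, the nuclear exosome and nonsense-mediated decay; 47 genes, 44 tested), none of 352 gene and comparison pairs passed by limma or edgeR, 43 had an unadjusted p under 0.05 and 8 an adjusted p under 0.05. Among the 8 was Lbr, a receptor of the nuclear envelope that Xist binds, higher with sgCbfb (0.51 ± 0.10, adjusted p = 0.00043) and lower with sgMed12 (-0.45 ± 0.10, adjusted p = 0.00835).

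In the comparisons where a lncRNA passed, a neighbour passed as well in 1 of 4 tested with sgCbfb in LP cells of experiment 1, 1 of 6 with sgCbfb in Phase 1, 3 of 9 with Notch stimulation in sgControl cells and 1 of 6 with sgCbfb in experiment 2, and in none of 7, 1 and 4 for stage in sgCbfb cells, sgCTCF and sgMed12. In the same order, the shares of all genes that passed were 1.69%, 3.52%, 3.39% and 4.33%, and 1.19%, 2.43% and 1.03%. Heg1 was the passing neighbour in both sgCbfb comparisons of LP cells and was also among those with Notch stimulation. Heg1 and Ift57 overlap exons of their lncRNA, where reads cannot be assigned without strand. Among these neighbours Ift57 moved against its partner and Heg1, Zfp36l2 and Cradd with theirs.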

How the data were processed

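Poly(A)-primed QuantSeq 3′ mRNA libraries (FWD kit, 75-base single reads) of hNGFR+CD45+ Cas9-LP cells, sorted 5 days after transduction, were analysed from 24 libraries, 3 in each of 8 groups, in 2 experiments. The authors trimmed reads with fastp, aligned them to mm10 with STAR, counted them per gene and put all libraries on 1 common total, so the deposited values are CPM, although the file names say TPM. Versions, read counter, annotation and strand setting are not given in the sources used here. At least 99.98% of the values above 0 were whole reads within 0.0011 CPM, which gave depths of 1363263 to 1743319 reads per library in experiment 1 and 3354483 to 4326782 in experiment 2.

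Within each experiment, log2(CPM + 1) of genes reaching 1 CPM in 3 or more libraries was fitted over all 4 groups with limma 3.58.1 (R 4.3.3, variance trend, no block), and p-values were Benjamini-Hochberg adjusted over all genes tested, 13239 in experiment 1 and 13177 in experiment 2. Thresholds were an adjusted p under 0.05, a 2-fold change of the means (none for the stage by sgCbfb term) and a mean over 10 CPM. edgeR 4.0.16 (quasi-likelihood, TMM) on the recovered reads, other pseudocounts, filters, scaling and fits, the replicate block and fits without each library were the alternatives. Intervals of read ratios are exact 95% intervals and cover counting error only. The main fits did not pair samples by replicate number. The correlation of same-numbered deviations was -0.01 to 0.10 in experiment 1 and -0.06 to 0.11 in experiment 2. These values do not tell whether same-numbered cultures were set up together. The limma and edgeR fits were run on simulated counts with a fixed dispersion. Changes were added there only to genes averaging over 10 CPM, so genes at a few reads were not covered.

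The genes and all lists (known lncRNAs, coding partners, markers) were chosen with earlier results of these data known. Genes named were the 8 with the highest means, up to 3 in each direction with the largest change of the means in each comparison, the listed lncRNAs, the nearest coding genes and those beside the limit. Gm26740, Gm20342, Gm16046, Gm15834, Mir17hg in its comparison and genes passing by adjusted p alone were named after their values were seen. Positions and transcript ends are from GENCODE M21, promoters and microRNAs from RefSeq.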

Additional observations from a re-analysis of the deposited data

Results flagged for a closer look

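The effect of sgCbfb differed between LP and Phase 1 cells by the test of the difference itself for 3 of the 101 RNAs. The stage by sgCbfb term was -3.522 for Gm15657 (limma adjusted p = 0.00702), -3.417 for A630091E08Rik (adjusted p = 0.0157) and 1.13 for H19 (adjusted p = 0.0207), all on the log2 scale. For Gm15657 the mean went from 2.74 to 32.1 CPM in LP and from 11.2 to 9.96 CPM in Phase 1. The terms of A630091E08Rik and H19 lost the call without single libraries and that of Gm15657 did not.

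Rows typed TEC, which were not among the 101 RNAs, summed to a mean of 3918 CPM in the sgMed12 libraries, against a mean of 1864 CPM and a highest library of 2096 CPM with sgControl in experiment 2. Replicate 2 of sgMed12 stood at 2192 CPM and the other sgMed12 libraries at 5001 and 4562 CPM. In experiment 1, single libraries of LP sgControl and LP sgCbfb reached 3988 and 4069 CPM.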

How the results depend on the processing

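Of the 48 calls of single genes in the 8 comparisons, 23 were kept in every fit. Of 381 fits of these calls under other settings 30 lost the call, and of 576 fits without 1 library 75 lost it. None reversed. The 30 losses fell on 17 calls, those of Gm19696 (sgCbfb in Phase 1, adjusted p = 0.289 with a pseudocount of 0.1), of Gm4632, Gm15518, Gm15657, Gm16046 and Gm20342 (stage with sgControl), of AI480526 and Gm33091 (stage with sgCbfb), of Lncpint (sgCbfb in experiment 2), of Dubr and Snhg6 (sgCTCF) and of all 6 genes with sgMed12. The cause was not tested. Counts of genes passing per comparison changed by more than 1.5 times as follows. With genes limited to a mean over 10 CPM across the experiment, which leaves fewer genes, the count was 3 for sgCbfb in LP cells of experiment 1, 6 for the stage with sgControl, 1 for sgCTCF and 3 for sgMed12. With only the compared groups in the fit it was 5 for the stage with sgControl and 0 for sgMed12, where 32 genes had an unadjusted limma p under 0.05. edgeR was not run on the compared groups alone. A pseudocount of 5 gave 6 for the stage by sgCbfb term. Without the fold threshold, 13 passed for sgCbfb in experiment 2, 12 for sgCTCF and 10 for sgMed12. Without the filter on low values, 1 passed for sgCTCF and 2 for sgMed12.

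Leaving out each library in turn gave 5 to 7 genes for sgCbfb in LP cells of experiment 1, 5 to 9 in Phase 1, 6 to 12 for the stage with sgControl, 4 to 11 with sgCbfb, 1 to 5 for the stage by sgCbfb term, 7 to 9 for sgCbfb in experiment 2, 1 to 4 for sgCTCF and 1 to 17 for sgMed12. With the replicate number as a block, in that order, 6, 8, 12, 7, 3, 8, 3 and 7 passed. Whether the replicate numbers pair the samples is not given by the labels. With edgeR, 6, 9, 12, 9, 3, 8, 3 and 9 passed, and with median-of-ratios scaling 5, 6, 11, 7, 3, 8, 3 and 7. A single read was worth about 0.6 CPM in experiment 1, so RNAs at a few CPM rest on a handful of reads there.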

Other observations

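Non-coding RNAs of other types were also expressed. Over the 10 CPM limit were 110 TEC rows, 47 processed transcripts, 13 sense intronic and 11 bidirectional promoter RNAs. Peg13, an imprinted RNA within Trappc9 that is typed sense intronic, rose with sgCbfb in each of the 3 comparisons. Its mean went from 10.9 to 40.7 CPM in LP cells of experiment 1 (log2 fold change 1.82 ± 0.35, limma adjusted p = 0.00309), from 5.55 to 22.6 CPM in Phase 1 cells (1.80 ± 0.35, adjusted p = 0.00203) and from 14.4 to 52.4 CPM in experiment 2 (1.80 ± 0.22, adjusted p = 1.26e-06). The TEC row Gm37010 rose with sgCbfb in LP cells of both experiments, from 3.19 to 17.3 CPM and from 4.90 to 19.4 CPM (adjusted p = 0.0038 and 7.07e-05), and with Notch stimulation in sgControl cells, to 15.7 CPM (adjusted p = 0.00368).

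Among processed transcripts, Mirt1 rose with sgCbfb from 10.2 to 33.1 CPM in experiment 1 (1.63 ± 0.44, limma adjusted p = 0.0461) and from 8.5 to 30.7 CPM in experiment 2 (1.75 ± 0.26, adjusted p = 2.32e-05). Firre, an X-linked nuclear RNA, went from a mean of 11.8 to 23.7 CPM with sgCbfb in experiment 2 (adjusted p = 0.0147), and Fendrr, transcribed opposite Foxf1, rose with sgCTCF from 1.74 to 13.9 CPM (2.43 ± 0.34, adjusted p = 2.64e-05). With sgMed12, 36 TEC rows rose and 1 fell. These genes were picked after their values were seen.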
